A study of Bos taurus with 10 samples.

Results

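Transcription factors of steroidogenic cells were followed in the corpora lutea of cattle. The 10 genes were chosen by name, and 9 of them had a probeset that carried their symbol alone. They are NR5A1, NR5A2, GATA4, GATA6, NR0B1, NR0B2, FOXL2, FOXO1 and RUNX2, each with 1 probeset, out of 18010 genes measured in the same way. CEBPB is not analysed here, since no probeset carried its symbol alone. The glands were taken at day 7 of the cycle from cows that received selenium in different forms, 5 labelled MIX and 5 labelled ISe, and the labels do not say what either name stands for beyond the form of selenium. RNA of every sample went onto 1 single-colour Affymetrix array, and precision is limited by how many arrays there are. The cow behind each sample, its age and its breed are not in the labels, so p-values speak only of the spread among these samples, which may be technical. The sample numbers are those of the labels, MIX 1, 8, 9, 10 and 11 and ISe 2, 3, 5, 6 and 7, and values per array are given in that order.

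The corpus luteum forms from the granulosa and theca cells of the ovulated follicle, which turn into luteal cells that make progesterone. NR5A1 (steroidogenic factor 1) and NR5A2 (liver receptor homolog 1) are nuclear receptors that bind the promoters of steroidogenic genes, and GATA4 and GATA6 are zinc finger factors that act with them. NR0B1 (DAX1) and NR0B2 (SHP) lack a classical DNA-binding domain and repress the NR5A receptors. FOXL2 maintains granulosa cell identity, FOXO1 is a forkhead factor held out of the nucleus by insulin and growth factor signalling, and RUNX2 is induced in rat granulosa cells by the ovulatory surge of luteinizing hormone.

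The tissue label was borne out by the genes of luteal steroid synthesis, which lay near the top of the arrays in every sample. CYP11A1, the side-chain cleavage enzyme, was between 12.94 and 13.01 in MIX and between 12.95 and 13.06 in ISe on the log2 scale, against array medians of 5.99 to 6.04. Over all probesets tested, MIX 8 lay far from the rest on principal component 1 (32.80, the others from -9.47 to 1.27), as did MIX 1 on component 2 (-26.59). Beside every result that follows, 15 of 17 macrophage markers were higher in MIX at an unadjusted p under 0.05 (SIGLEC1 and MARCO were not), beside 2.67% of all probesets, and their mean ran from 0.109 to 0.339 in MIX and from -0.399 to 0.049 in ISe (log2 deviation from each gene's mean). FCGR1A, CD68, CD14 and C1QA differed by 0.57, 0.52, 0.50 and 0.52 log2. The part of macrophages in the results on the transcription factors was not tested. In whole tissue, fewer cells of a type and less RNA per cell cannot be told apart.

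The comparison of MIX with ISe asks whether the form of selenium goes with a different level of these factors. None of the 9 genes passed the test: limma called 0 of 9 at an adjusted p under 0.05, beside 0.0% of all 19145 probesets, and 0 of 9 at an unadjusted p under 0.05, beside 4.79% of all probesets (918 probesets, 2.67% of all higher and 2.12% lower in MIX, and 907 without moderation). The groups overlapped for all 9, whereas they did not overlap for 0.642% of all probesets. For 8 of the 9 genes the MIX mean lay below ISe, the exception being RUNX2, and their median difference was -0.05 log2, beside 0.0011 for all probesets, of which 49.6% lay below ISe. The sign held with every single array left out for NR5A1, GATA4 and RUNX2, and turned with at least 1 array left out for the other 6. Leaving out ISe 2 alone turned FOXL2, FOXO1 and GATA6 to 0.048, 0.029 and 0.027 log2. The largest mean difference, that of NR5A1, was -0.26 log2. For 5 genes (NR5A2, GATA4, GATA6, NR0B1 and FOXO1) the 95% interval of the fold change lay within 0.8-fold to 1.25-fold.

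**Figure D1:**
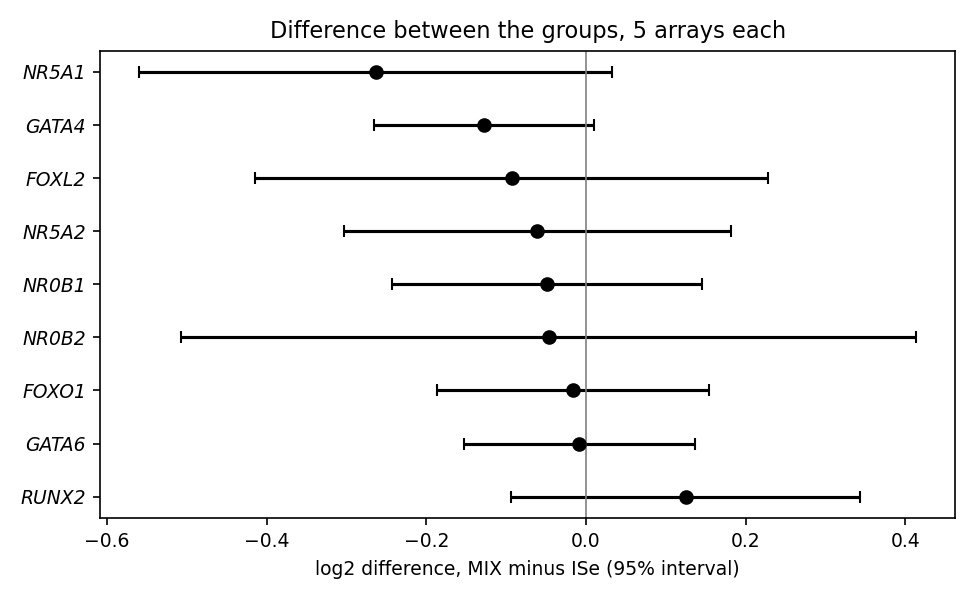
Difference between MIX and ISe in log2 signal for each of the 9 genes (x axis), with bars for the 95% interval of the limma fit over 5 arrays per group. Every interval crosses 0, and the intervals of NR0B2, FOXL2 and NR5A1 are the widest.

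NR5A1, which with its co-factors drives the steroidogenic enzymes, had the lowest MIX mean relative to ISe. Its log2 signal was 8.47, 8.35, 8.32, 8.53 and 8.03 in MIX, against 9.01, 8.39, 8.36, 8.73 and 8.52 in ISe. MIX 8, 9 and 11 lay below all ISe arrays, ISe 2 and ISe 6 above all MIX arrays, and the other 5 overlapped. The mean was 8.34 ± 0.19 in MIX samples, against 8.60 ± 0.27 in ISe samples (SD, n = 5 each), 0.83-fold with a 95% interval of 0.68 to 1.02 (limma adjusted p = 0.941). The log2 difference of -0.26 was -0.16 without ISe 2.

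NR5A2, the other receptor of the family, was 10.04, 10.26, 10.50, 10.35 and 10.43 in MIX, against 10.53, 10.31, 10.11, 10.34 and 10.60 in ISe. MIX 1 and ISe 5 were low and ISe 7 and ISe 2 high, so each group covered nearly the same span. The means were 10.32 ± 0.18 in MIX samples, against 10.38 ± 0.19 in ISe samples (SD, n = 5 each), 0.96-fold with an interval of 0.81 to 1.13. Its spread within groups, an SD of 0.19, was above that of 85.1% of the 589 probesets within 0.5 log2 of its level, and that of NR5A1, 0.24, above 90.0% of 2462.

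GATA4 showed the smallest spread within groups of the 9 and the smallest unadjusted p. It was 7.19, 7.06, 7.22, 6.97 and 7.15 in MIX, against 7.33, 7.26, 7.26, 7.19 and 7.19 in ISe. MIX 8, 10 and 11 lay below all ISe arrays, and MIX 1 and MIX 9 lay within the ISe range. The means were 7.12 ± 0.10 in MIX samples, against 7.25 ± 0.06 in ISe samples (SD, n = 5 each), 0.92-fold with an interval of 0.83 to 1.01. The unadjusted p was 0.0667 and the limma adjusted p 0.941.

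GATA6, which overlaps with GATA4 in its ovarian targets, was 9.36, 9.27, 9.47, 9.37 and 9.39 in MIX, against 9.52, 9.44, 9.26, 9.39 and 9.29 in ISe. The groups covered each other, with ISe arrays at both ends. The means were 9.37 ± 0.07 in MIX samples, against 9.38 ± 0.11 in ISe samples (SD, n = 5 each), 0.99-fold with an interval of 0.90 to 1.10, and all 10 arrays lay within 0.26 log2.

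The repressor NR0B2 varied more between the arrays than any other of the 9 genes. It was 5.39, 4.78, 5.49, 5.63 and 6.12 in MIX, against 5.64, 5.36, 5.87, 5.32 and 5.44 in ISe. MIX 8 was the lowest and MIX 11 the highest array, a span of 2.53-fold, and all ISe arrays lay between them. Its SD within groups of 0.38 was above that of 95.5% of 3313 probesets of a like level. The fold change was 0.97 with an interval of 0.70 to 1.33.

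NR0B1, the related repressor, was 5.15, 5.27, 5.14, 5.03 and 4.78 in MIX, against 5.09, 5.08, 5.05, 5.24 and 5.16 in ISe. Here MIX 11 was the lowest and MIX 8 the highest array, the reverse of NR0B2. The fold change was 0.97 with an interval of 0.85 to 1.11. NR0B1 lay below the array medians on every array, and NR0B2 on all but MIX 11, where it was 6.12, and at such levels a signal bounds a change in transcript less firmly.

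FOXL2 was 7.36, 7.24, 7.24, 7.41 and 7.46 in MIX, against 8.00, 7.46, 7.06, 7.36 and 7.30 in ISe. ISe 2 stood 0.61 log2 above the gene's mean and ISe 5 was the lowest, so the MIX arrays all lay inside the ISe range. The means were 7.34 ± 0.10 in MIX samples, against 7.44 ± 0.35 in ISe samples (SD, n = 5 each), 0.94-fold with an interval of 0.75 to 1.17. Without ISe 2 the log2 difference changed from -0.09 to 0.05.

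FOXO1 was 9.12, 8.92, 9.10, 8.80 and 8.94 in MIX, against 9.17, 8.93, 8.98, 8.94 and 8.93 in ISe. ISe 3, 5, 6 and 7 lay within 8.93 to 8.98, and ISe 2 lay above every other array. The fold change was 0.99 with an interval of 0.88 to 1.11.

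RUNX2 was the one gene with a higher mean in MIX. It was 10.05, 10.20, 10.26, 9.88 and 10.05 in MIX, against 9.74, 10.14, 9.80, 10.06 and 10.07 in ISe. MIX 8 and MIX 9 lay above all ISe arrays, ISe 2 and ISe 5 below all MIX arrays, and the other 6 overlapped. The means were 10.09 ± 0.15 in MIX samples, against 9.96 ± 0.18 in ISe samples (SD, n = 5 each), 1.09-fold with an interval of 0.94 to 1.27 (limma adjusted p = 0.941). The log2 difference of 0.12 was 0.069 without ISe 2 and 0.081 without MIX 9.

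**Figure D2:**
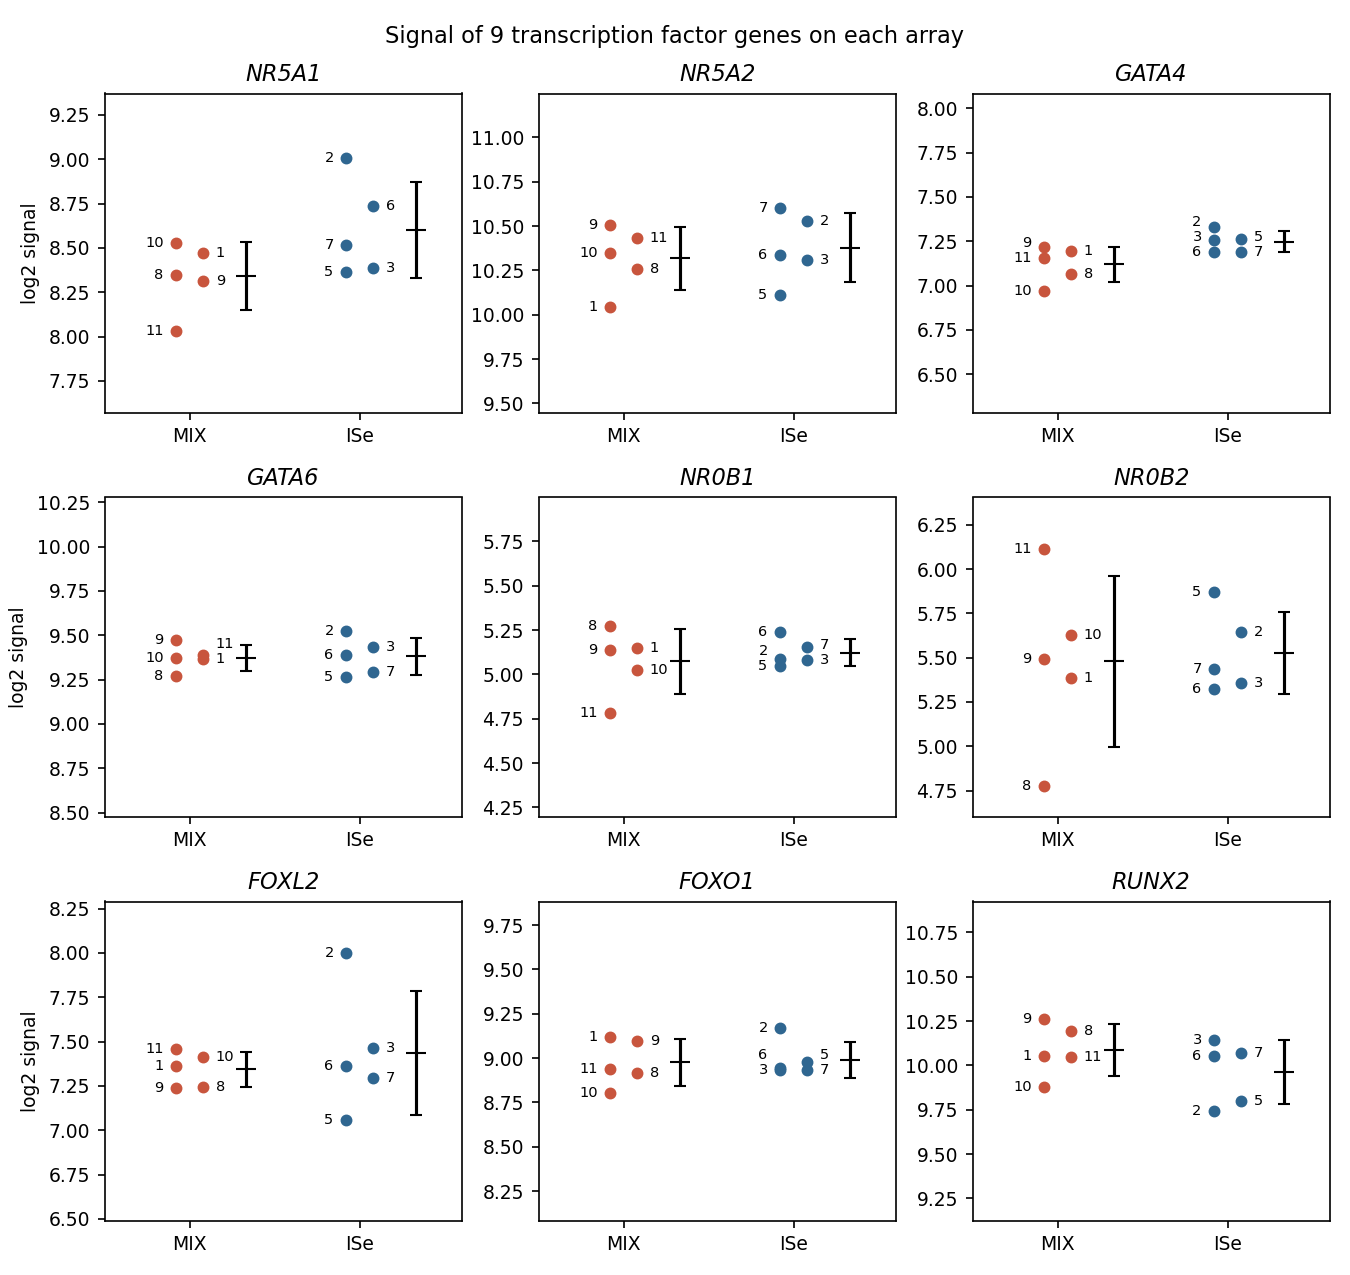
Log2 signal (y axis, spanning the same number of log2 units in every panel) of the 9 genes on each array, with MIX left of ISe, the sample number beside each point, and the mean ± SD (n = 5) to the right of the points. The groups overlap in all 9 panels, MIX 8 and MIX 11 are the extremes of NR0B2, and ISe 2 is the highest array for NR5A1, GATA4, GATA6, FOXL2 and FOXO1.

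One ISe sample set the top of several of these genes. ISe 2 was the highest of the 10 arrays for 5 of the 9 genes (NR5A1, GATA4, GATA6, FOXL2 and FOXO1) and the lowest for RUNX2, while 11.2% of all genes measured had their highest value in it. The receptors of the gonadotropins were also at their highest there: LHCGR, the receptor of luteinizing hormone, was 11.74 in ISe 2 and between 10.86 and 11.52 in the other arrays, and FSHR, the receptor of follicle-stimulating hormone, 5.62 against 4.69 to 5.34. FSHR lay below the array median on every array, where a signal bounds a change in transcript less firmly. In the same sample the mean of the macrophage markers, at -0.399, was the lowest of the 10 and that of the steroidogenic cell markers, at 0.153, the highest. The macrophage mean was nearly as low in ISe 7, at -0.394. From the highest array down, ISe 7 ranked 4 for NR5A1, 6.5 (tied) for GATA4, 8 for GATA6 and 7 for FOXL2 and FOXO1. The part of both marker means in the levels of the transcription factors was not tested. The steroidogenic mean is not scaled by gene, so its most variable genes weigh most. In ISe 2 PRLR deviated by 0.708, LHCGR by 0.477 and HSD11B1L by 0.220. CYP11A1, HSD3B1 and HSD3B7 deviated there by only 0.066, 0.021 and 0.015.

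**Figure D3:**
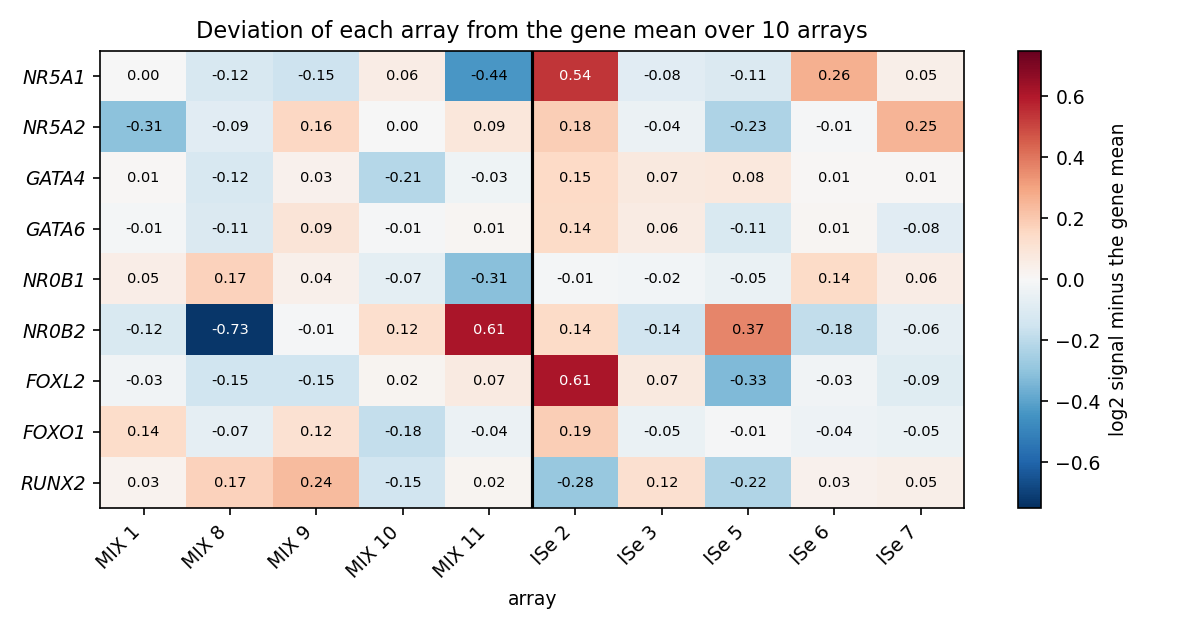
Deviation of each array (columns, MIX left of the line and ISe right of it) from the gene's mean over the 10 arrays, in log2 units, with red above and blue below the mean. ISe 2 is above the mean for 7 of the 9 genes, by 0.54 for NR5A1 and 0.61 for FOXL2, and NR0B1 and NR0B2 deviate in opposite directions in MIX 8 and MIX 11.

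Whether the factors varied together from one array to the next was examined over the 36 pairs of the 9 genes. Each pair had Pearson's r and Spearman's rho over the 10 arrays with two-sided permutation tests. No pair passed after Benjamini-Hochberg adjustment over the 36, and 3 had an unadjusted p under 0.05 by r. The threshold alone would give a share of 0.05 of the pairs, which all rest on the same 10 arrays. The repressors NR0B1 and NR0B2 had r = -0.88 (permutation p = 0.0023, adjusted 0.0817) and rho = -0.82 (p = 0.0061, adjusted 0.218). Without MIX 8 and MIX 11, the arrays at both ends, r was -0.72 over the other 8 (exact permutation p = 0.0418, adjusted 0.502).

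GATA4 and FOXO1 had r = 0.73 (permutation p = 0.0179, adjusted 0.215) and rho = 0.72 (p = 0.0231, adjusted 0.416). For this pair r was 0.27 without ISe 2 and MIX 10 and with the group means kept (exact permutation p = 0.519). GATA6 and FOXL2 had r = 0.74 (permutation p = 0.0076, adjusted 0.138) and rho = 0.61 (p = 0.0672, adjusted 0.604), and without ISe 2 and ISe 5 r was 0.32 (exact permutation p = 0.427). With the group means removed, NR0B1 with NR0B2 (r = -0.91, permutation adjusted p = 0.018) and GATA4 with FOXO1 (r = 0.90, permutation adjusted p = 0.00792) passed the adjusted threshold, and the other 34 pairs did not. These permutations did not allow for the means taken out, so their p-values may be too small. The related receptors NR5A1 and NR5A2 had r = 0.20 and rho = 0.20 (permutation p = 0.580 and 0.582, adjusted 0.855 and 0.966), and GATA4 and GATA6 had r = 0.42 and rho = 0.35 (permutation p = 0.228 and 0.314, adjusted 0.697 and 0.957).

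**Figure D4:**
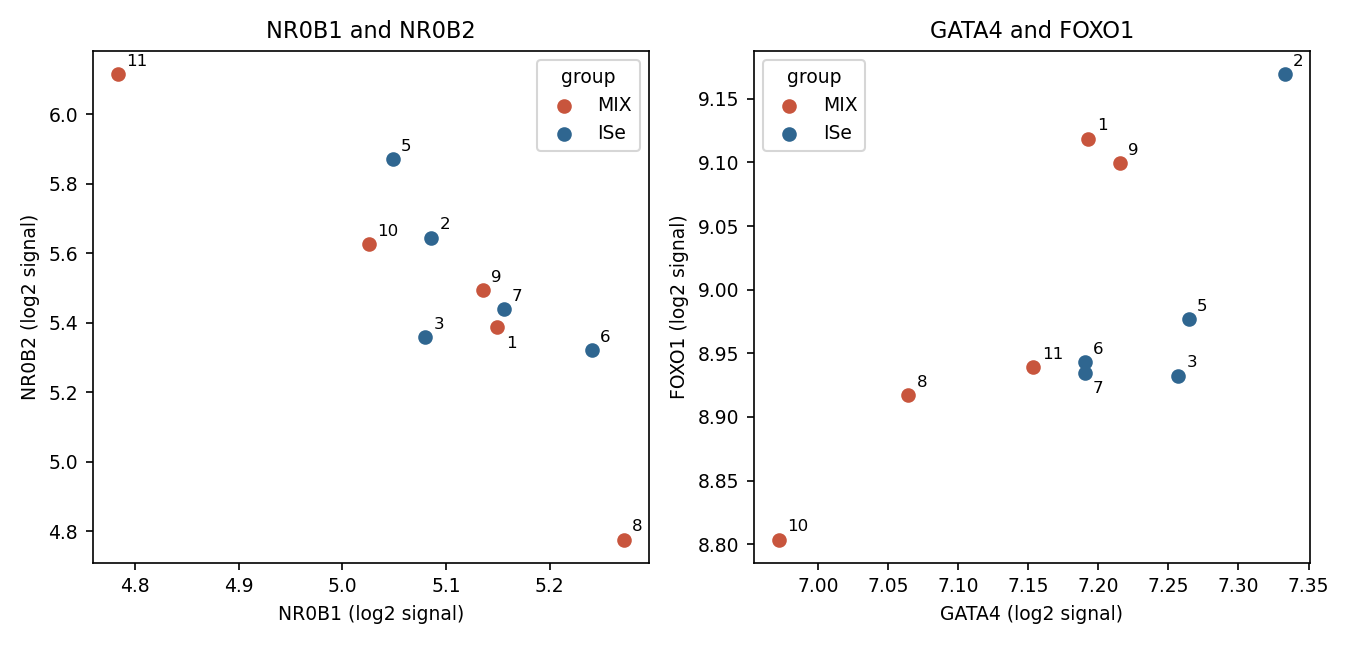
Log2 signal of NR0B2 against NR0B1 (left) and of FOXO1 against GATA4 (right) on the 10 arrays, coloured by group and labelled with the sample number. MIX 8 and MIX 11 lie at opposite ends of the falling NR0B1 and NR0B2 relation, and ISe 2 and MIX 10 at the ends of the rising GATA4 and FOXO1 relation.

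The factors were also set against 4 marker lists, in 36 relations of the 9 genes with the mean of steroidogenic, macrophage, endothelial, and fibroblast and pericyte markers. None passed the adjustment over the 36, and 3 had an unadjusted p under 0.05, beside a share of 0.05 from the threshold alone. NR5A2 had a negative r with fibroblast and pericyte markers (r = -0.74, permutation p = 0.0145, adjusted 0.338, rho = -0.72, p = 0.0225, adjusted 0.708), and r was -0.65 without ISe 2 and MIX 9 (exact permutation p = 0.0789) and -0.76 with the group means removed (permutation p = 0.0132, adjusted 0.158). GATA4 had a negative r with macrophage markers (r = -0.71, permutation p = 0.0188, adjusted 0.338, rho = -0.66, p = 0.0393, adjusted 0.708), with r = -0.73 without ISe 2 and ISe 7 (exact permutation p = 0.0427) and r = -0.38 once the group means were removed (permutation p = 0.273). FOXL2 had a positive r with the steroidogenic markers (r = 0.65, permutation p = 0.0308, adjusted 0.369, rho = 0.50, p = 0.145, adjusted 0.714), with r = 0.47 without ISe 2 and MIX 1 (exact permutation p = 0.236) and r = 0.79 once the group means were removed (permutation p = 0.0062, adjusted 0.111). That marker mean follows PRLR most, whose SD within groups was 0.80, against 0.31 for LHCGR, 0.04 for CYP11A1 and 0.02 for HSD3B1. The part of PRLR in the relation was not tested.

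Against 6 genes of the luteal and granulosa cell programme (CYP11A1, HSD3B1, LHCGR, INHA, CYP19A1 and FSHR), 0 of 54 relations passed the adjustment over the 54, and 7 had an unadjusted p under 0.05. The threshold alone would give a share of 0.05 of the relations, which all rest on the same 10 arrays. RUNX2 and LHCGR had the smallest p (r = -0.85, permutation p = 0.0011, adjusted 0.0572, rho = -0.87, p = 0.0025, adjusted 0.133), and r was -0.75 without ISe 2 and ISe 5 (exact permutation p = 0.0259, adjusted 0.400). LHCGR was 11.01, 10.86, 10.99, 11.51 and 11.52 in MIX, against 11.74, 10.95, 11.50, 11.18 and 11.40 in ISe. The 4 highest arrays for LHCGR, which were MIX 10, MIX 11, ISe 2 and ISe 5, include the 3 lowest for RUNX2 (MIX 10, ISe 2 and ISe 5). NR0B2 had a positive r with LHCGR (r = 0.73, permutation p = 0.0097, adjusted 0.261, rho = 0.82, p = 0.0062, adjusted 0.166), with r = 0.70 without MIX 8 and MIX 11 (exact permutation p = 0.0502). NR0B1 had a negative r with INHA, the inhibin alpha subunit (r = -0.71, permutation p = 0.0205, adjusted 0.264, rho = -0.71, p = 0.027, adjusted 0.424), and r was -0.54 without MIX 8 and MIX 11 (exact permutation p = 0.175). The remaining relations at an unadjusted p under 0.05 were those of FOXO1, GATA6 and FOXL2 with FSHR and of FOXL2 with CYP11A1. FOXO1 with FSHR had r = 0.72, and 0.62 without ISe 2 and MIX 1. GATA6 with FSHR had r = 0.69, and 0.31 without ISe 2 and ISe 5. Without the same arrays, FOXL2 went from r = 0.65 to -0.42 with FSHR and from 0.69 to 0.36 with CYP11A1.

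Known targets of NR5A1, NR5A2, GATA4 and GATA6 were described beside the factors, with 21 of the 25 listed measured. Their median difference was -0.07 log2, with 8 above and 13 below ISe, 0 at an adjusted p under 0.05, and 1 higher and 1 lower at an unadjusted p under 0.05. The threshold alone would give 1.05 of the 21, and 4.79% of all probesets were under it. POR, the electron donor of microsomal cytochromes P450, was 9.06 ± 0.04 in MIX samples, against 8.90 ± 0.06 in ISe samples, and HSD17B1, which makes estradiol, 5.02 ± 0.15 in MIX samples, against 5.27 ± 0.13 in ISe samples (SD, n = 5 each). HSD17B1 lay below the array medians on every array, where a signal bounds a change less firmly. INHA differed by -0.15 ± 0.21, CYP19A1, the aromatase, by -0.03 ± 0.17 and FSHR by -0.07 ± 0.17 (log2 difference ± SE). INSL3, the insulin-like peptide of theca cells, spanned far more than any of the 9 factors, at 7.39, 7.43, 8.97, 10.93 and 10.76 in MIX, against 10.47, 9.31, 9.40, 9.84 and 11.35 in ISe. MIX 1 and MIX 8 were the lowest arrays for INSL3, and the groups overlapped.

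Targets of the other factors were likewise without a gene past the adjusted threshold. At an unadjusted p under 0.05 were 1 of 22 FOXO1 targets, 2 of 12 RUNX2 targets and 1 of 11 CEBPB targets. The threshold alone would give 1.1, 0.6 and 0.55, and 4.79% of all probesets were under it. Among 22 measured targets of FOXO1 the median was 0.05 log2, 13 lay above and 9 below ISe, and TRIM63, a ubiquitin ligase of muscle, was the one gene at an unadjusted p under 0.05 (-0.29 ± 0.11, log2 difference ± SE). TRIM63 lay between 3.65 and 4.42, under the lower quartiles of the arrays (4.52 to 4.66), where a signal bounds a change less firmly. GADD45A and SOD2 were at 0.18 ± 0.10 and 0.14 ± 0.09. Among 12 targets of RUNX2 the median was 0.11, and SPP1, the secreted phosphoprotein osteopontin that macrophages also make, and COL10A1 had an unadjusted p under 0.05. COL10A1, between 3.01 and 3.83, was also under the lower quartiles of the arrays. SPP1 was 9.47, 9.24, 9.98, 9.89 and 9.34 in MIX, against 8.54, 9.12, 9.25, 8.98 and 8.55 in ISe, with MIX 8 just below ISe 5 and the other 4 MIX arrays above all ISe arrays. Of 11 targets of the unmeasured CEBPB, with a median of 0.03, 1 was below ISe at an unadjusted p under 0.05, namely TNFAIP6, a hyaluronan-binding protein of the ovulatory follicle, at 9.85 ± 0.32 in MIX samples, against 10.41 ± 0.21 in ISe samples (SD, n = 5 each).

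Relatives and partners of the 9 factors showed small differences. Beside the counts below, 4.79% of all probesets had an unadjusted p under 0.05. Of 16 family relatives, with a median of 0.03 log2, CEBPA alone had an unadjusted p under 0.05, at 5.47 ± 0.08 in MIX samples, against 5.24 ± 0.15 in ISe samples (SD, n = 5 each), and GATA2 and RUNX1 were at -0.20 ± 0.10 and 0.12 ± 0.07 (log2 difference ± SE). CEBPA lay below the array medians on every array, where a signal bounds a change less firmly. The 19 partner proteins and coregulators ran from -0.08 (ZFPM1) to 0.17 (PPARGC1A), with a median of 0.00008 and 0 at an unadjusted p under 0.05. The group means of ZFPM1 and PPARGC1A also lay below the array medians. ZFPM2, the GATA4 partner FOG2, was at 0.07 ± 0.09. Of 38 other transcription factors of luteinising granulosa cells, with a median of -0.01, SREBF1, a regulator of lipid synthesis genes, had an unadjusted p under 0.05 (0.18 ± 0.06). The immediate early factor FOS was at -0.94 ± 0.44 (log2 difference ± SE) with ISe 2 and ISe 7 at 8.20 and 8.79 and the MIX arrays between 6.04 and 7.12, and JUNB was at -0.35 ± 0.18.

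The cell type lists gave the setting of these values. Medians were -0.03 for granulosa cell markers (13 genes), 0.0005 for theca cell markers (7), 0.02 for steroidogenic cell markers (9), 0.11 for endothelial markers (15), -0.01 for fibroblast and pericyte markers (14), 0.20 for T and NK cell markers (15), -0.01 for adipocyte markers (9) and 0.50 for macrophage markers (17). The theca median hides INSL3 at -0.98 ± 0.73 and CYP17A1 at -0.47 ± 0.30 (log2 difference ± SE), both with overlapping groups. The rest of that list lay between -0.05 and 0.10. The mean of the theca cell markers ran from -0.459 to 0.273 in MIX and from -0.064 to 0.356 in ISe (log2 deviation from each gene's mean). At an unadjusted p under 0.05 were 1 granulosa gene (HSD17B1, lower in MIX) and 1 endothelial gene (TEK, higher). So were 3 T and NK cell genes (NKG7, GZMA and CCL5, all higher) and 0 theca, steroidogenic or fibroblast and pericyte genes. The 3 adipocyte genes under it went both ways, LIPE and LPL higher in MIX and PLIN1 lower. Of the 9 adipocyte markers, 4 lay above and 5 below ISe. HSD17B1, GZMA and PLIN1 lay below the array medians on every array, where a signal bounds a change less firmly. The share of all probesets under that threshold was 4.79%. Over all 16 lists, 0 genes had an adjusted p under 0.05.

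**Figure D5:**
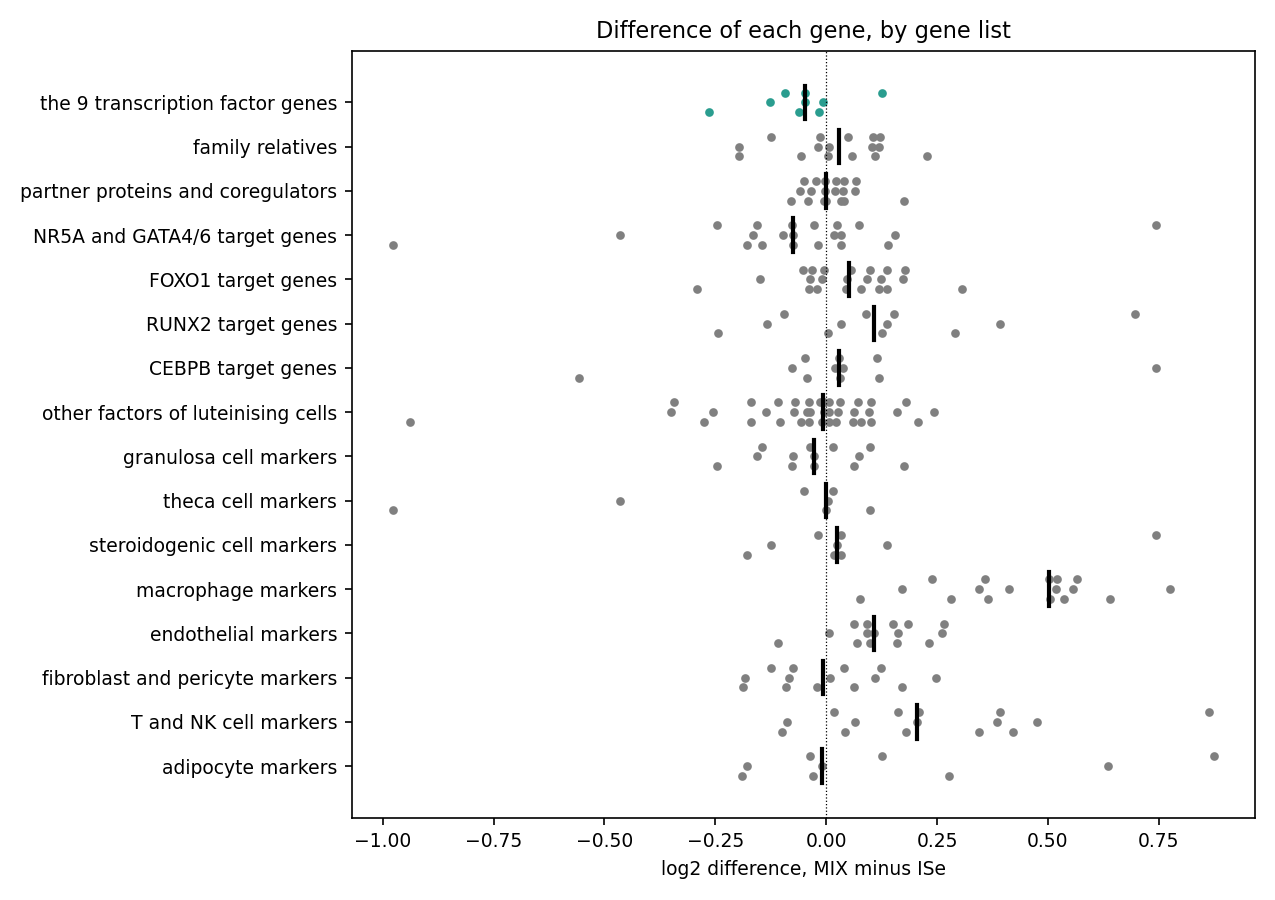
Log2 difference between MIX and ISe (x axis) of every measured gene of each list, with a black bar at the list's median. The 9 transcription factor genes lie between -0.26 and 0.12, while macrophage markers lie between 0.08 and 0.78 with a median of 0.50.

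The genes whose levels over the 10 arrays were most like those of each factor were taken from 13368 other genes with a mean of at least 5. As the highest of so many, their correlations are a description with no test. They were RRM2B, CAMKK1 and RGS12 for NR5A1 (r = 0.92 to 0.93), LOC768028, LINGO4 and MAL2 for NR5A2 (0.91 to 0.93), SMUG1, GTF2H5 and RCHY1 for GATA4 (0.94 to 0.96), and CBR3, JUP and NDUFV3 for GATA6 (0.87 to 0.91). For the repressors they were ZFYVE19, RETREG3 and ZP2 for NR0B1 (0.90 to 0.92) and LOC614881, CSGALNACT1 and CLEC1B for NR0B2 (0.93 to 0.96). For FOXL2 they were MYO1D, ECSIT and TMEM94 (0.93 to 0.94), whose r fell to between 0.71 and 0.75 without ISe 2. QNG1, OXNAD1 and AP1AR were nearest to FOXO1 (0.91 to 0.94) and CLMP, TGFBR3L and GLDN to RUNX2 (0.92 to 0.94). None of the 27 is a member of the 9.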

How the data were processed

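Total RNA of 10 bovine corpora lutea, 5 MIX and 5 ISe by their titles, was measured on Affymetrix whole-transcript arrays. The authors deposited 1 log2 signal per probeset; GCOS 1.2 and Partek are named, with no role, per the submitters' processing notes, and no source used here gives the background correction or the normalisation. Values were used as deposited. Of 26773 probesets, 18457 have 1 symbol in the platform annotation, 688 more than 1 and 7628 no symbol, which leaves 19145 for the test. A gene with several probesets was represented by that of the highest mean. MIX was compared with ISe by limma 3.58.1 in R 4.3.3 (lmFit, eBayes, two-sided, Benjamini-Hochberg, threshold 0.05), a fit tested on simulated data. An exact two-sided permutation of the group labels, with 5 arrays a side, could give no p under 0.00794. It was not run, and the limma p-values have no such floor.

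Correlations used 100000 resamples in Python 3.11.15, or all orders for 8 arrays. Of 45 planned pairs of factors, 36 could be formed without CEBPB. Relations with 6 single genes were added after the values were seen. The factors and lists were chosen with earlier results of these data known. The text names all factors, up to 3 genes of smallest p per list, 6 fixed genes and the 3 genes most like each factor. SIGLEC1, MARCO, C1QA, ZFPM1 and PPARGC1A lie outside that rule and were picked with their values in view. Alternatives covered normalisation, dim probesets, probesets tested, moderation, array weights and left-out arrays.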

Additional observations from a re-analysis of the deposited data

Results flagged for a closer look

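FOXO1 in ISe 2, at 9.17 log2, stood apart from the other 4 ISe samples, the nearest of which was ISe 5 at 8.98. The gap was 0.812 of the range of the group, above the Dixon limit of 0.71 for 5 samples. Of the 18 sets of 5 samples examined (9 genes in MIX and in ISe), this was the only one past that limit, and chance gives about 1 in 20.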

How the results depend on the processing

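No factor passed the adjusted threshold under any alternative run, and NR5A1, GATA4 and RUNX2 kept their direction in all of them. Counts at an unadjusted p under 0.05 changed from 0 to 1 after quantile normalisation, without the dimmer 50% of probesets and without moderation (GATA4 each time), and ran from 0 to 1 with 1 array left out (NR5A1 without ISe 3 or ISe 5, GATA4 without MIX 9). With 1 array left out, log2 differences ran from -0.32 to -0.16 for NR5A1, -0.15 to -0.090 for GATA4, 0.069 to 0.18 for RUNX2, -0.19 to 0.048 for FOXL2, -0.052 to 0.029 for FOXO1, -0.038 to 0.027 for GATA6, -0.10 to 0.024 for NR0B1, -0.21 to 0.13 for NR0B2 and -0.13 to 0.0080 for NR5A2. Array quality weights turned GATA6 to 0.012 and NR0B2 to 0.094. Leaving out MIX 1 and MIX 8 together turned GATA6 to 0.030, NR0B2 to 0.22 and NR5A2 to 0.050, with fewer samples in the fit. Leaving out ISe 2 alone turned FOXL2 to 0.048, FOXO1 to 0.029 and GATA6 to 0.027. The remaining reversals came with a different single array left out, and the cause of the reversals was not tested. Over all probesets, calls ran from 0 to 1 with 1 array left out, the 1 being without MIX 8. Pairs of factors past the adjusted threshold numbered 0, or 2 with the group means removed, by p-values that may be too small. NR0B1 and NR0B2 fall among the dimmer 50% of probesets and had no value without them, and as each factor has 1 probeset, no second one could be tried. No paired analysis was possible because the groups share no replicate number. Levels of NR0B1 on all arrays, and of NR0B2 on all but MIX 11, lie below the array medians, and values of CYP11A1 lie near the top of the scale, which limits both.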
